A study of Mus musculus with 9 samples.

Results

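Mouse corneal epithelial cells kept at 1% oxygen were compared with the same cells kept at 8% oxygen. The cells were the cultured line iCell-0093a, labelled WT, and the labels name oxygen as the only treatment. The comparison used 6 of the 9 libraries of the series, 3 at 1% and 3 at 8% oxygen, chosen by their treatment labels. The other 3 libraries, at 21% oxygen, are given beside the results to place a level. The labels state neither how long the cells stayed at each oxygen level nor whether each replicate was its own culture. The p-values therefore reflect the variation among these libraries, and that variation may be technical. Expression was given as FPKM, fragment counts scaled to transcript length and library size, so that levels of different genes can be compared. Of the 26445 entries in the table, 11584 reached 1 FPKM in at least 3 of the 6 libraries and were tested.

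Cells sense oxygen through prolyl hydroxylases, encoded by the Egln genes, which use it to mark the alpha subunits of HIF (hypoxia-inducible factor) for destruction. When oxygen falls, HIF persists, binds hypoxia response elements and raises genes for glucose uptake, glycolysis, lactate output and the removal of mitochondria by mitophagy. The cornea has no blood vessels, and its epithelium draws oxygen from the air through the tear film, with less reaching it under closed lids.

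The simple-epithelial keratins Krt8 and Krt18 were abundant in the 6 libraries, with 604, 663 and 567 FPKM of Krt8 at 1% oxygen and 544, 533 and 537 FPKM at 8%. The epithelial adhesion genes Cdh1 and Epcam lay between 59.2 and 97.2 FPKM. Pax6, the transcription factor that defines eye surface epithelium, did not exceed 0.00730 FPKM in these libraries, and Trp63, a marker of stratified epithelial progenitors, lay between 0.193 and 0.456 FPKM. The epithelial label was thus met by general epithelial genes and not by these defining genes. Within an oxygen level the log2 values of libraries correlated across genes at 0.9838 to 0.986 for 1% oxygen and 0.9809 to 0.9839 for 8%, and between the levels at 0.9744 to 0.9815, genes not being independent replicates. 8% replicate 2 lay apart from the other 8% libraries on the first 2 principal components, which held 33.6% and 19.1% of the variance. The mitochondrial genome made up 7.39%, 7.75% and 7.16% of the FPKM sum at 1% oxygen and 6.02%, 8.52% and 6.28% at 8%, with 8% replicate 2 the highest.

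At 1% oxygen 494 genes differed from 8% oxygen (limma, Benjamini-Hochberg adjusted p of 0.05 or less), which is 4.26% of the genes tested. Of these, 268 were higher at 1% (2.31% of the genes tested) and 226 were lower (1.95%). Differences are on the scale of log2(FPKM + 1), which understates changes of low genes. They were small: the median absolute log2 difference of the called genes was 0.402, 12 genes rose by 1 or more and 4 fell by 1 or more. All 3 values at 1% lay on one side of all 3 at 8%, without overlap, in each of the 494 called genes. The same held for 33.4% of the genes tested (16.3% higher and 17% lower). With groups that did not overlap and a log2 difference of at least 0.5, 199 genes were higher (1.72%) and 122 lower (1.05%). An unadjusted p under 0.05 was met by 25.7% of the genes tested. Over all genes tested the median difference was −0.00454. The count rested on the full set of 6 libraries: it was 22, 25 and 37 without 8% replicate 1, 2 or 3, and 19, 32 and 289 without 1% replicate 1, 2 or 3. With a spread estimated from all 9 libraries it was 15, and with the replicate number as a block it was 0. All 494 genes kept their direction in every alternative that gave them a value. Since their groups did not overlap, leaving out a library or changing the spread could not have reversed a direction.

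A group of 15 genes was called with any single library left out, and every other called gene lost its call without at least 1 of the libraries. Of the 15, 11 were higher at 1% and 4 lower, and 2 of them, Slpi and Ucp2, fall outside the naming rule and were chosen after their values were seen. The higher ones include inflammatory and antimicrobial genes (Csf3, Cxcl1, Zc3h12a, Lcn2, Slpi), the G1 cyclin Ccnd1, the mitochondrial regulators Pdk1 and Ucp2, the GTPase regulator Rap1gap2, and the mitochondrial transfer RNA genes mt-Tl1 and mt-Te. The lower ones were Lsm12, Slc5a3, Il1rl1 and Hspa4l. With the spread of all 9 libraries 6 of the 15 were called (Lcn2, Slc5a3, mt-Tl1, mt-Te, Lsm12 and Il1rl1), and the other 9 had limma adjusted p-values between 0.0634 and 0.136.

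**Figure D1:**
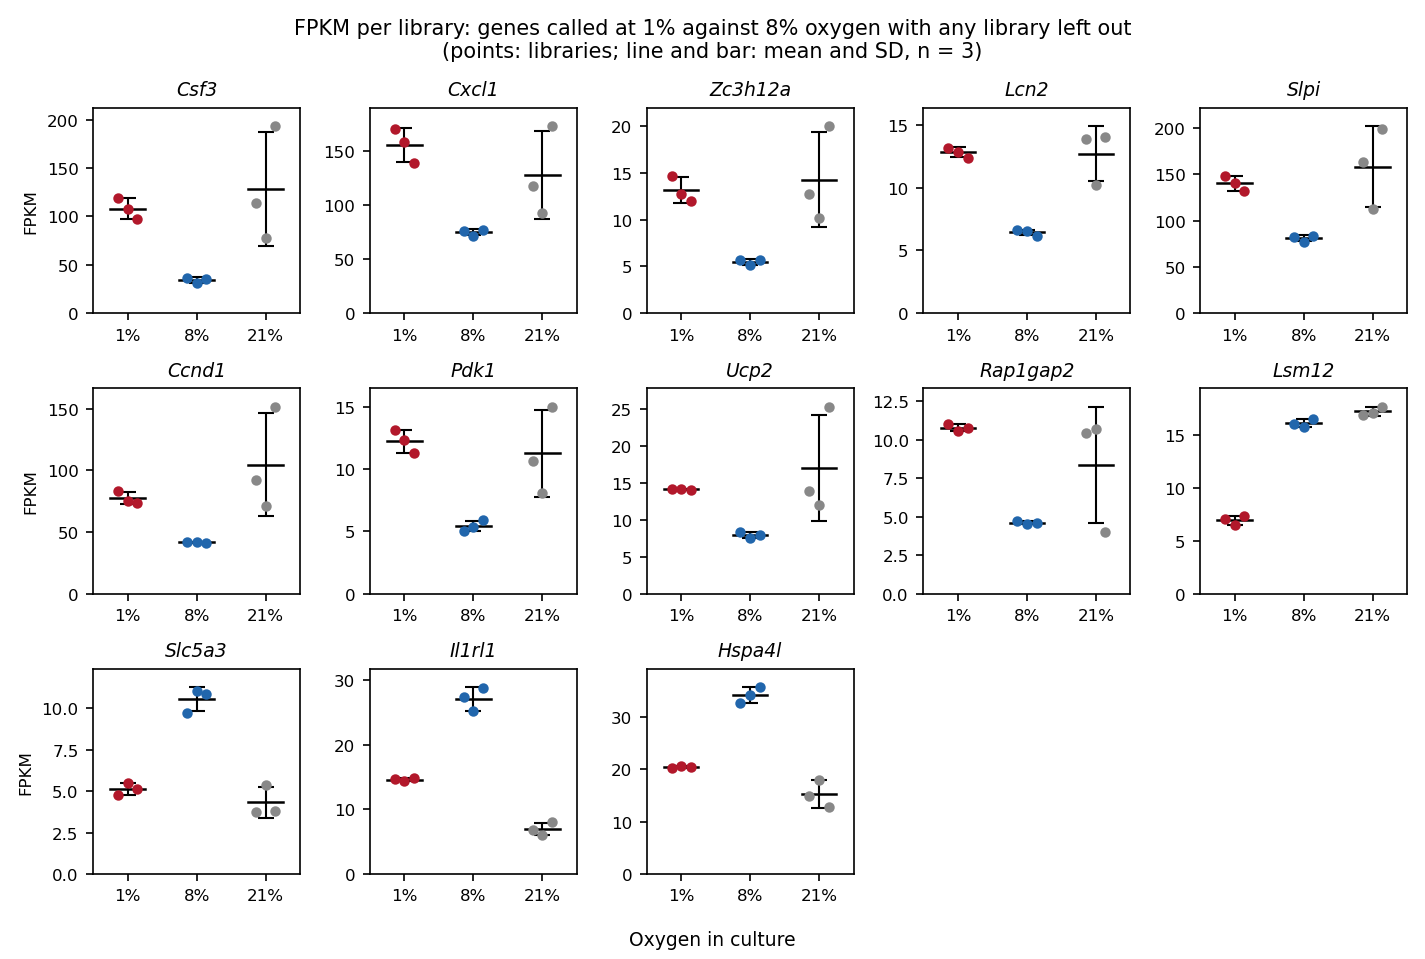
FPKM of 13 nuclear genes in every library at 1%, 8% and 21% oxygen, with the mean and SD of 3 libraries. The genes were called at 1% against 8% oxygen with any library left out. For each, as for every called gene, all 3 libraries at 1% lie on one side of all 3 at 8%. For each of the 9 higher genes the 21% libraries are more spread than the 8% libraries.

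Classical HIF targets rose in part at 1% against 8% oxygen. Of 43 tested HIF targets outside glycolysis, 6 were called higher (Fam162a, Bnip3, Ankrd37, Mif, Egln1 and Hilpda) and none lower. The median difference of the list was 0.20 on the log2 scale. Its called share was 14%, against 4.26% of all genes tested. This list and those below were chosen with earlier results of these data known. At an unadjusted limma p under 0.05, 17 of the 43 were higher and 4 lower. The largest rises among the 6 called genes were those of Fam162a and Bnip3. Fam162a, a HIF-responsive gene of a mitochondrial protein linked to apoptosis, had 122, 134 and 91.0 FPKM at 1% oxygen and 51.6, 38.5 and 55.4 FPKM at 8%, a log2 difference of 1.23 (SE 0.186, limma adjusted p = 0.0336). Bnip3, an outer membrane receptor that draws autophagosomes to mitochondria, had 58.1, 52.2 and 41.3 FPKM at 1% and 20.4, 20.03 and 27.4 FPKM at 8%, a log2 difference of 1.13 (SE 0.163, limma adjusted p = 0.0325). In both genes, as in every gene called higher, every library at 1% lay above every library at 8%. At 21% oxygen Bnip3 had 28.9, 20.3 and 55.6 FPKM and Fam162a 92.1, 50.4 and 113 FPKM, ranges that overlapped both lower levels. With single libraries left out, 0 to 4 targets of the list were called as higher.

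Among the oxygen sensors, Egln1, the main prolyl hydroxylase acting on HIF, had 28.9, 27.2 and 26.0 FPKM at 1% oxygen and 19.7, 20.9 and 21.4 FPKM at 8%, and rose by a log2 difference of 0.39 (limma adjusted p = 0.0325). Egln3, a hydroxylase that is itself a HIF target, averaged 40.1 ± 1.75 FPKM at 1% and 34.6 ± 2.00 FPKM at 8% (SD, n = 3 each) without passing the test (limma adjusted p = 0.0948). The RNA of the sensed subunit, Hif1a, averaged 48.4 ± 2.82 FPKM at 1% and 42.6 ± 1.87 FPKM at 8% and did not pass (limma adjusted p = 0.122), and Epas1, the other main alpha subunit gene, was below the filter. HIF protein was not measured. Several well-known targets did not pass the test either. Car9, a carbonic anhydrase that exports acid, had 65.6, 67.1 and 57.8 FPKM at 1% oxygen and 51.7, 43.3 and 58.2 FPKM at 8%, so the groups overlapped. Vegfa, the vascular growth factor, had 20.6, 22.8 and 25.5 FPKM at 1% and 20.7, 17.5 and 19.7 FPKM at 8%. Adm, which encodes the vasodilator adrenomedullin, averaged 5.05 ± 0.384 FPKM at 1% and 5.76 ± 0.804 FPKM at 8% (SD, n = 3 each). Ndrg1, Ddit4 and P4ha1, HIF-responsive genes of stress signalling and collagen hydroxylation, had log2 differences of 0.15, 0.32 and 0.29 and adjusted p-values of 0.238, 0.157 and 0.264 by limma.

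Glucose and lactate genes rose at several steps. Slc2a1, the main basal glucose transporter, and Pfkl, the liver-type phosphofructokinase that commits glucose to glycolysis, were called higher. So were the lower-pathway enzymes Pgam1 and Eno1, and none of the 19 tested glycolysis entries was called lower. The called share was 21.1%, against 4.26% of all genes tested. The median of these entries was 0.23 on the log2 scale. Pfkl had 45.7, 43.7 and 38.5 FPKM at 1% oxygen and 21.6, 22.0 and 25.4 FPKM at 8%, a log2 difference of 0.86 (SE 0.0882, limma adjusted p = 0.0166). Pgam1 averaged 230.1 ± 17.8 FPKM at 1% and 149 ± 16.2 FPKM at 8%, Eno1 205 ± 29.2 and 135 ± 11.3 FPKM, and Slc2a1 30.3 ± 2.67 and 22.7 ± 1.28 FPKM (SD, n = 3 each). Pgk1, an ATP-forming enzyme of the same pathway, had 799, 807 and 669 FPKM at 1% against 634, 554 and 726 FPKM at 8% and was not called (limma adjusted p = 0.244). Glycogen and pentose phosphate genes gave 3 calls among 17 tested members (17.6%, against 4.26% of all genes tested), all higher. These were Gbe1, which branches glycogen, at 5.28 ± 0.250 FPKM at 1% and 3.66 ± 0.472 FPKM at 8%, and the NADPH-forming enzymes G6pdx and Pgd with log2 differences of 0.29 and 0.24. Pgam1, Eno1, Ldha and Mif have near-identical copies in the mouse genome, and how reads were divided among them is unknown.

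At the fate of pyruvate, Pdk1, the kinase that switches off pyruvate dehydrogenase and so keeps pyruvate from the TCA cycle, had 13.2, 12.4 and 11.3 FPKM at 1% oxygen and 5.08, 5.40 and 5.91 FPKM at 8%. It rose by 1.04 on the log2 scale (SE 0.0769, limma adjusted p = 0.00731), and its adjusted p did not exceed 0.0433 with any library left out. Ldha, which turns pyruvate into lactate, had 377, 355 and 306 FPKM at 1% and 161, 161 and 231 FPKM at 8%, a log2 difference of 0.92 (SE 0.159, limma adjusted p = 0.0398). The lactate and pyruvate carrier Slc16a1 averaged 27.3 ± 0.961 FPKM at 1% and 21.6 ± 0.930 FPKM at 8% (SD, n = 3 each, limma adjusted p = 0.0352). These 3 were the calls among 14 tested genes of pyruvate and lactate handling, a share of 21.4% against 4.26% of all genes tested. At an unadjusted limma p under 0.05, 5 of the 14 were higher and 3 lower. 8% replicate 3 was the highest 8% library for Ldha, Bnip3, Fam162a and Pdk1, though still below every 1% library.

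**Figure D2:**
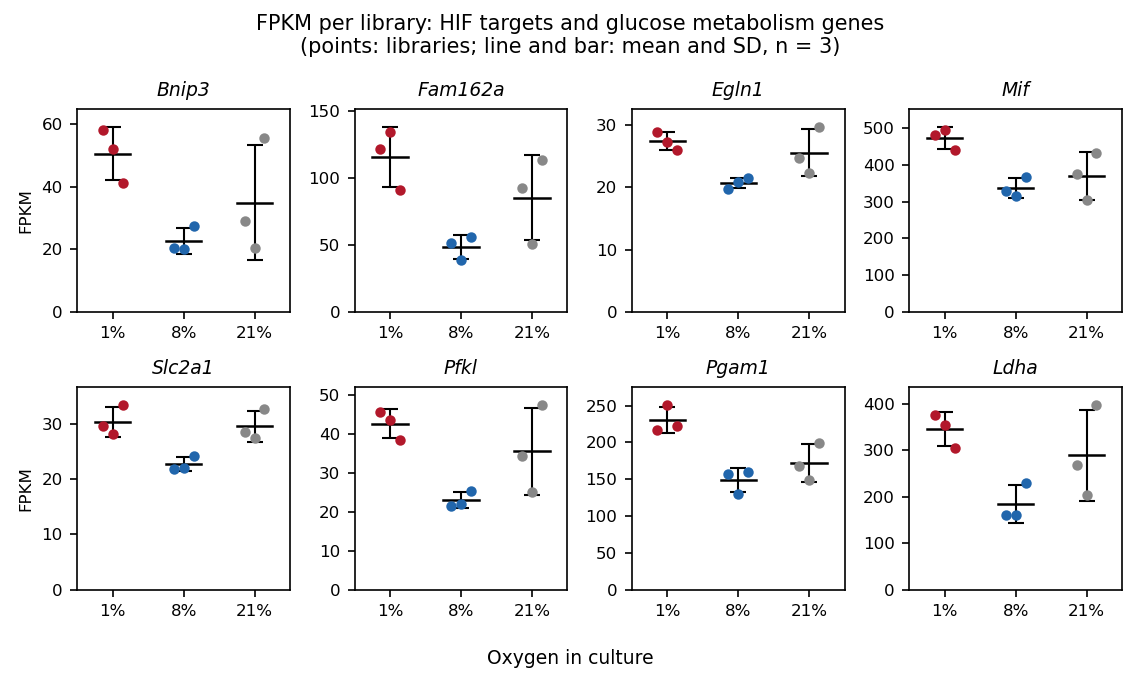
FPKM of 8 HIF-target and glucose genes in every library at 1%, 8% and 21% oxygen, with the mean and SD of 3 libraries. As for every gene called higher, the 3 libraries at 1% lie above the 3 at 8% in each panel. The 21% libraries are more spread than the 8% libraries in each.

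The promoters of these genes show the letters that HIF recognises. The hypoxia response core was searched as ACGTG or GCGTG on both strands in RefSeq windows of 250 bases before to 50 bases after a start site (GRCm38.p6), where a CACGTG is counted on each strand. All 13 called genes of the HIF subunit, HIF target, glycolysis, and pyruvate and lactate lists that had a window held a core in at least 1 of their windows, 17 of 18 windows in all. The same core stood in 43.8% of all windows in the table and in 64.0% of windows of tested genes, so it is a common sequence. A match describes letters and not a bound site. The 150 bases before the start are shown for the 4 genes with the largest differences in these lists, with cores in capitals. They lie at chr7:138909507-138909656 on the minus strand (Bnip3), chr16:36071562-36071711 on the minus strand (Fam162a), chr7:46845654-46845803 on the plus strand (Ldha) and chr2:71873074-71873223 on the plus strand (Pdk1).
Bnip3: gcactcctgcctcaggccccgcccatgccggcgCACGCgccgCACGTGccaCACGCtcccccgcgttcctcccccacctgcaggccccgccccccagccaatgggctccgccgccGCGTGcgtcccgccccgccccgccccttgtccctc
Fam162a: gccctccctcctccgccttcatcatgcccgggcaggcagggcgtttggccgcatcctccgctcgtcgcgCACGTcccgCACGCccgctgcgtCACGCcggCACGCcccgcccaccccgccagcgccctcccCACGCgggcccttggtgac
Ldha: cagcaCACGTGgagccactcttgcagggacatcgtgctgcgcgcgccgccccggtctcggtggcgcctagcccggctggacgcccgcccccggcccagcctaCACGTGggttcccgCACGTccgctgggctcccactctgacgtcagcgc
Pdk1: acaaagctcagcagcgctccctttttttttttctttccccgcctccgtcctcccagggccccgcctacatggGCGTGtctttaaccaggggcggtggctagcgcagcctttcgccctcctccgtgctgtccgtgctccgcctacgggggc
Bnip3, Fam162a and Ldha each had 5 cores in this stretch and Pdk1 had 1, while their log2 differences were 1.13, 1.23, 0.92 and 1.04. The cores of Bnip3 stood between 117 and 35 bases before the start, and the single Pdk1 core of this stretch at 78 bases before it. The full windows around these stretches held 5 cores for Bnip3, 6 for Fam162a, 7 for Ldha and 2 for Pdk1. The second Pdk1 core began 2 bases before the start and ran past the end of the stretch.

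Of the mitophagy and autophagy genes tested, 10% and 2.22% were called, against 4.26% of all genes tested. At an unadjusted limma p under 0.05, 4 mitophagy genes were higher and 3 lower. For autophagy 3 were higher and 10 lower of 45 tested, where 12.9% of all genes tested were higher and 12.8% lower. Among 30 tested mitophagy receptors and adaptors Bnip3 was the only gene called higher. The 2 called lower were Calcoco1, an autophagy adaptor, and Ulk1, the kinase that starts autophagosome formation. Calcoco1 had 13.2, 13.95 and 14.3 FPKM at 1% oxygen and 17.8, 18.1 and 18.1 FPKM at 8%, a log2 difference of −0.36 (limma adjusted p = 0.0289). Ulk1 averaged 7.67 ± 0.199 FPKM at 1% and 9.73 ± 0.568 FPKM at 8% (SD, n = 3 each, limma adjusted p = 0.0443), and it was the only call among 45 tested autophagy genes. The related receptor Bnip3l had 97.8, 101 and 82.4 FPKM at 1% against 74.3, 77.9 and 90.4 FPKM at 8%, with overlapping groups (limma adjusted p = 0.265). Fundc1, a hypoxia-linked mitophagy receptor, had a log2 difference of 0.07 and Pink1, the kinase that marks damaged mitochondria, of −0.02. The cargo adaptor Sqstm1 and the autophagosome gene Map1lc3b had differences of −0.07 and −0.12. Lysosomal genes moved in each direction, with 2 higher (Gusb, Arsb) and 2 lower (Neu1, Laptm4b) among 55 tested.

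Part of the mitochondrial transcriptome was higher at 1% oxygen. Of the 13 messenger RNAs of the mitochondrial genome, 5 rose, all but 1 of them subunits of complex I: mt-Nd1, mt-Nd2, mt-Nd5, mt-Nd6 and the cytochrome b gene mt-Cytb. None was called lower, and the median of the 13 was 0.34 on the log2 scale. The called share was 38.5%, against 4.26% of all genes tested. mt-Cytb had 1754, 1640.2 and 1705 FPKM at 1% oxygen and 1149.9, 1040.0 and 1065 FPKM at 8%, a log2 difference of 0.65 (SE 0.0573, limma adjusted p = 0.0125). mt-Nd1 had 1542, 1532 and 1348 FPKM at 1% and 951, 911 and 937 FPKM at 8%, a log2 difference of 0.66 (SE 0.0654, limma adjusted p = 0.0156). In each of the 5, as in every called gene, the groups did not overlap. By position on the circular genome (GRCm38), the called genes formed 2 runs of neighbours, mt-Nd1 and mt-Nd2 between bases 2751 and 4951, and mt-Nd5, mt-Nd6 and mt-Cytb between bases 11742 and 15288. The 8 genes between these runs, from mt-Co1 to mt-Nd4 (bases 5328 to 11544), were not called.

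The uncalled mitochondrial messenger RNAs were uneven among the 8% libraries. For the cytochrome oxidase gene mt-Co2 the 8% libraries had 2414, 4109 and 2406 FPKM, against 2569.7, 2825 and 2583 FPKM at 1% oxygen. mt-Co3 had 1709, 2058 and 1732 FPKM at 1% and 1629.8, 2642 and 1502 FPKM at 8%, with 8% replicate 2 again the highest. mt-Atp6, an ATP synthase subunit, was at 339 FPKM in 8% replicate 1, against 3145 and 1849 FPKM in the other 8% libraries and 2230.0, 2488 and 2092 FPKM at 1%. 8% replicate 2 was the highest 8% library in all 8 uncalled genes and in none of the 5 called ones. Without 8% replicate 1 the median of the 13 was 0.15 on the log2 scale, and with single libraries left out 0 to 3 of the 13 were called.

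**Figure D3:**
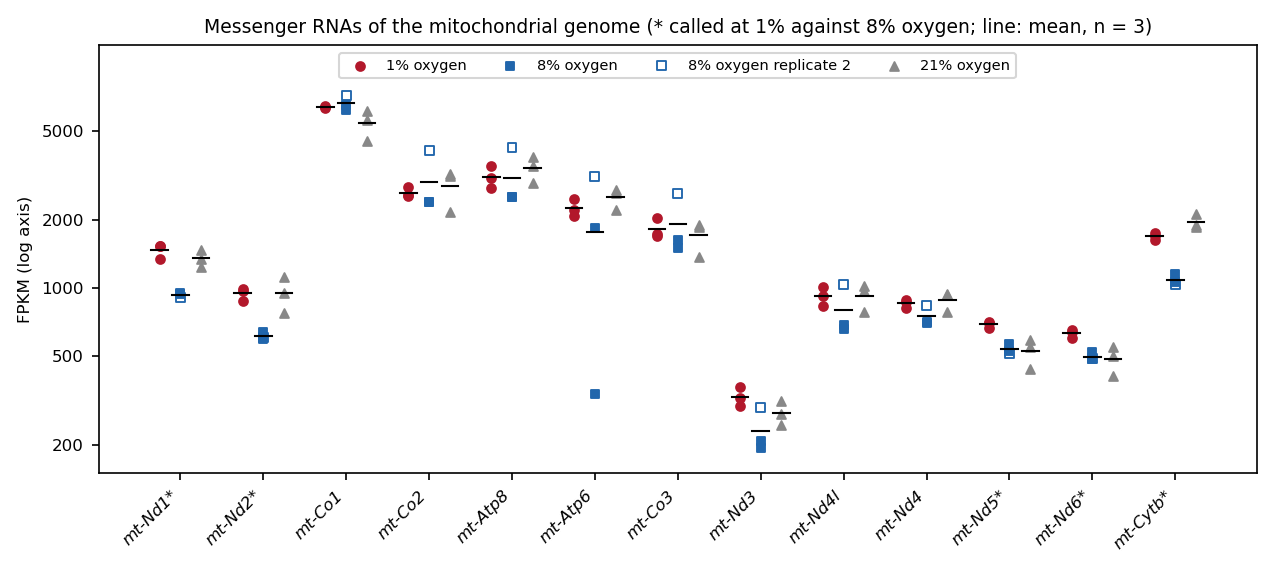
FPKM, on a log axis, of the 13 messenger RNAs of the mitochondrial genome in genome order at 1%, 8% and 21% oxygen, with lines for the mean of 3 libraries and open squares for 8% replicate 2. The called genes, marked with asterisks, stand at the ends of the row, and 8% replicate 2 lies high in the uncalled genes between them.

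Of 15 tested transfer and ribosomal RNA genes of the mitochondrial genome, 3 were called higher (mt-Tl1, mt-Te and mt-Th) and none lower, a called share of 20%. Their median was 0.01 on the log2 scale, with 9 positive and 6 negative values, and turned negative in 2 of the 14 alternatives. The transfer RNA gene mt-Tl1, which lies directly before mt-Nd1 (bases 2676 to 2750), had 228, 246 and 202 FPKM at 1% oxygen and 91.0, 77.8 and 86.3 FPKM at 8%, a log2 difference of 1.40 (SE 0.0907, limma adjusted p = 0.00499). mt-Te, on the opposite strand between mt-Nd6 and mt-Cytb (bases 14071 to 14139), had 101, 100.3 and 98.8 FPKM at 1% and 63.3, 63.8 and 67.4 FPKM at 8%, a log2 difference of 0.62 (limma adjusted p = 0.00499). At 21% oxygen mt-Tl1 had 106, 97.0 and 127 FPKM, so its 1% values stood above those of both other levels. FPKM of RNAs this short in libraries selected for poly(A) is uncertain, since their genes adjoin messenger RNAs and the strand setting of the counting is unknown. Of nuclear respiratory chain genes, 1 of 36 for complex I rose (Ndufb7, log2 difference 0.30) and 1 of 41 for complexes II to V fell (Uqcrh, log2 difference −0.32). These shares of 2.78% and 2.44% lie near the 4.26% of all genes tested. Positive values were held by 27 of the 36 and 30 of the 41. At an unadjusted limma p under 0.05, 6 complex I genes were higher and 0 lower, and for complexes II to V 10 were higher and 2 lower, where 12.9% of all genes tested were higher and 12.8% lower. No gene of the TCA cycle (24 tested) or of mitochondrial fatty acid oxidation (21 tested) was called, with 8 and 1 members higher and 2 and 0 lower at an unadjusted limma p under 0.05. Lrpprc, which stabilises mitochondrial messenger RNAs, had 9.18, 8.80 and 9.76 FPKM at 1% oxygen and 6.93, 6.52 and 5.74 FPKM at 8% and rose (log2 difference 0.47, limma adjusted p = 0.0365). Tfam, which packages mitochondrial DNA and starts its transcription, averaged 8.21 ± 0.178 FPKM at 1% and 7.69 ± 0.593 FPKM at 8% and was not called (SD, n = 3 each, limma adjusted p = 0.437).

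DNA replication genes were higher at 1% than at 8% oxygen. Of 54 tested, 14 were called higher and none lower, a called share of 25.9% against 4.26% of all genes tested. The list was chosen with earlier results of these data known. The median log2 difference of its tested genes was 0.29, and 51 of the 54 had a positive value. At an unadjusted limma p under 0.05, 34 were higher and 2 lower. The rise took in helicase subunits that open the origins (Mcm2, Mcm3, Mcm4, Mcm6 and Mcm7) with their loaders and activators (Cdc6, Cdc45), polymerase parts (Pola1, Pole2), the sliding clamp Pcna and nucleotide supply (Rrm2, Dut). It also took in the regulators E2f1, which switches on S phase genes, and Uhrf1, which copies DNA methylation. Rrm2, a ribonucleotide reductase subunit, had 12.6, 11.3 and 8.20 FPKM at 1% and 4.93, 5.48 and 4.97 FPKM at 8%, a log2 difference of 0.92 (SE 0.145, limma adjusted p = 0.0358). Pcna had 50.3, 52.2 and 42.0 FPKM at 1% and 30.2, 31.3 and 30.7 FPKM at 8%, a log2 difference of 0.62 (limma adjusted p = 0.0289). The 8% libraries were nearly level, and 1% replicate 3 was the lowest of the 1% libraries in each of the genes shown. Across the list, the median deviation from each gene's 6-library mean was 0.24, 0.21 and 0.03 on the log2 scale in the 1% libraries and −0.17, −0.15 and −0.15 in the 8% libraries.

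The number of replication genes called depended on the libraries. It was 18 without 1% replicate 3 and 0 without any other single library. At 21% oxygen the same list deviated by 0.20, −0.13 and 0.79, so 21% replicate 3 stood far from the other 21% libraries, and Pcna reached 90.1 FPKM there against 45.1 and 32.7 FPKM. Of 57 tested genes of mitosis and G2 none was called (limma), and 5 were higher and 0 lower at an unadjusted p under 0.05. Positive values were held by 40 of the 57. In this list replicates 1 and 2 deviated by 0.15 and 0.17 at 1% oxygen and by −0.12 and −0.18 at 8%, while replicate 3 deviated by −0.20 at 1% and by 0.17 at 8%. The difference between the replication and mitosis lists was not tested. The median of the mitosis list was 0.10, with a range of 0.03 without 8% replicate 2 to 0.21 without 1% replicate 3. The proliferation marker Mki67 had 38.9, 41.5 and 28.1 FPKM at 1% and 29.0, 27.4 and 38.6 FPKM at 8%, and Ccnb1, the mitotic cyclin, averaged 18.9 ± 3.05 and 19.0 ± 0.426 FPKM (SD, n = 3 each). Mki67 and Ccnb1 were chosen after their values were seen.

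**Figure D4:**
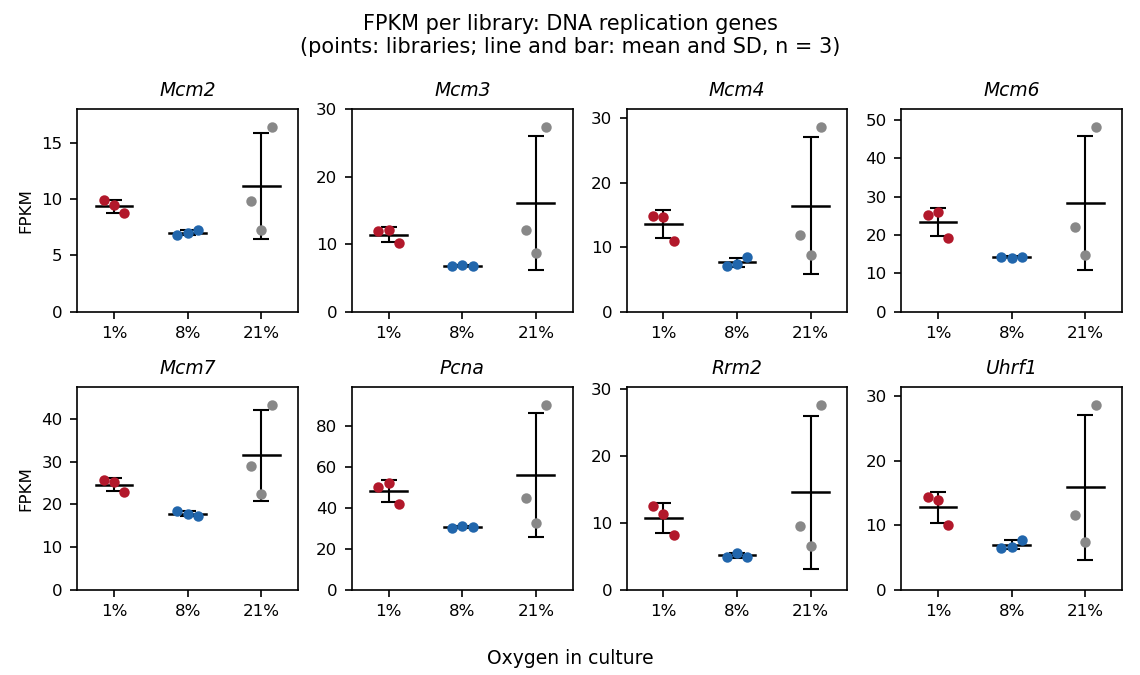
FPKM of 8 DNA replication genes in every library at 1%, 8% and 21% oxygen, with the mean and SD of 3 libraries. As for every gene called higher, the 1% libraries lie above the 8% libraries in each panel, with 1% replicate 3 nearest to them. The highest point of each panel is 21% replicate 3.

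Upstream of S phase, Ccnd1, the cyclin that carries growth signals into the cell cycle, had 83.1, 75.6 and 73.8 FPKM at 1% oxygen and 42.1, 42.0 and 41.2 FPKM at 8%. It rose by 0.88 on the log2 scale (SE 0.0545, limma adjusted p = 0.00499), and at 21% oxygen it had 91.9, 70.8 and 152 FPKM. The growth arrest genes Gadd45a and Btg1 fell, Gadd45a averaging 138 ± 14.8 FPKM at 1% and 189 ± 2.59 FPKM at 8% (SD, n = 3 each). The death receptor gene Fas and the survival gene Bcl2l1 rose by 0.46 and 0.31 on the log2 scale.

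Genes of EGF receptor signalling and its ERK feedback were higher in part. Of 23 tested EGF receptor ligands and ERK feedback genes, 5 were called higher and none lower, with a median of 0.20. The called share was 21.7%, against 4.26% of all genes tested. At an unadjusted limma p under 0.05, 10 of the 23 were higher and 3 lower. Areg, the EGF receptor ligand amphiregulin, had 16.2, 9.73 and 15.5 FPKM at 1% oxygen and 6.34, 4.87 and 6.66 FPKM at 8%, a log2 difference of 1.07 (SE 0.203, limma adjusted p = 0.0462). The ERK-induced transcription factors Etv5 and Etv4 averaged 3.61 ± 0.426 and 9.43 ± 0.247 FPKM at 1%, against 1.94 ± 0.0964 and 6.92 ± 0.642 FPKM at 8% (SD, n = 3 each). Dusp6, an ERK phosphatase and feedback gene, and Lrig1, which restrains EGF receptors, rose by 0.58 and 0.28. Fosl1, an AP-1 subunit, had 13.0, 13.2 and 13.3 FPKM at 1% and 8.81, 5.68 and 7.72 FPKM at 8% (log2 difference 0.77, limma adjusted p = 0.0422). With single libraries left out 0 or 1 gene of the ERK list was called.

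Inflammatory mediators included Csf3, whose rise was the largest of all genes called. Of 35 tested NF-kappaB and inflammatory genes, 9 rose and 3 fell, and the median was 0.24. The called share was 34.3%, against 4.26% of all genes tested, in a list chosen with earlier results of these data known. With single libraries left out 4 to 7 genes of the list were called as higher. Csf3, the granulocyte growth factor that calls out neutrophils, had 119, 108 and 97.2 FPKM at 1% oxygen and 36.2, 30.7 and 35.2 FPKM at 8%, a log2 difference of 1.64 (SE 0.0941, limma adjusted p = 0.00427). Cxcl1, a neutrophil chemokine, had 170.5, 158 and 139 FPKM at 1% and 76.4, 71.6 and 77.2 FPKM at 8% (log2 difference 1.04, limma adjusted p = 0.00741). Groups were far apart in both genes. Ccl2, a monocyte chemokine, averaged 83.4 ± 5.68 FPKM at 1% and 48.5 ± 2.37 FPKM at 8%, and the alarm cytokine Il1a 112 ± 1.48 and 72.5 ± 10.1 FPKM (SD, n = 3 each).

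Zc3h12a, the RNase that degrades cytokine messenger RNAs, had 14.7, 12.8 and 11.9 FPKM at 1% oxygen and 5.69, 5.12 and 5.70 FPKM at 8%, a log2 difference of 1.12 (SE 0.0851, limma adjusted p = 0.00741). Nfkbia, the inhibitor that holds NF-kappaB in the cytoplasm, averaged 74.6 ± 10.3 FPKM at 1% and 47.7 ± 2.88 FPKM at 8% (SD, n = 3 each). The antimicrobial iron-siderophore binder Lcn2 had 13.2, 12.8 and 12.4 FPKM at 1% and 6.59, 6.51 and 6.18 FPKM at 8%, a log2 difference of 0.89 (limma adjusted p = 0.00427). Slpi, an inhibitor of neutrophil elastase, averaged 140.2 ± 8.22 FPKM at 1% and 80.9 ± 3.45 FPKM at 8%. The prostaglandin genes split: Ptges, the E2 synthase, rose by 0.59, while Ptgs2, the inducible cyclooxygenase ahead of it, had 212, 212 and 258 FPKM at 1% against 340.3, 315 and 331 FPKM at 8% and fell by 0.54 on the log2 scale (limma adjusted p = 0.0365). Nfkb2, an NF-kappaB subunit gene, averaged 47.9 ± 0.573 FPKM at 1% and 55.2 ± 1.13 FPKM at 8% (SD, n = 3 each) and fell by 0.20 on the log2 scale. Receptors split too. Il1r1, the interleukin 1 receptor, rose by 0.30, and Il1rl1, the interleukin 33 receptor, had 14.7, 14.3 and 14.8 FPKM at 1% and 27.3, 25.2 and 28.8 FPKM at 8%, a log2 difference of −0.85 (SE 0.0582, limma adjusted p = 0.00516). Among 30 tested interferon-stimulated and antigen presentation genes 1 was called, Oas1a, with a rise of 0.49. This share of 3.33% compares with 4.26% of all genes tested. At an unadjusted limma p under 0.05, 8 of the 30 were higher and 1 lower, where 12.9% of all genes tested were higher and 12.8% lower.

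Matrix and protease genes of wound repair rose in small number. Mmp13 and Mmp9, a collagenase and a gelatinase, averaged 112 ± 10.3 and 9.36 ± 0.634 FPKM at 1% oxygen, against 81.6 ± 2.00 and 6.67 ± 0.613 FPKM at 8% (SD, n = 3 each). They and the aggrecanase gene Adamts4 were the calls among 19 tested metalloproteinases and inhibitors, a share of 15.8% against 4.26% of all genes tested. Serpinb2, an inhibitor of urokinase, had 16.8, 13.99 and 12.6 FPKM at 1% and 8.995, 9.20 and 9.14 FPKM at 8% and rose (log2 difference 0.60, limma adjusted p = 0.0365). The collagen cross-linking enzyme Loxl4 fell, with 209.8, 231 and 219.6 FPKM at 1% and 290.3, 292 and 278 FPKM at 8%. Crtap, a partner of collagen prolyl 3-hydroxylase, and Col18a1, the precursor of the vessel inhibitor endostatin, rose by 0.38 and 0.20.

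Lipid and metal genes also moved. Of 40 tested genes of cholesterol and fatty acid synthesis, 6 were called higher and none lower, with a median of 0.18. The called share was 15%, against 4.26% of all genes tested. Hmgcs1, an early enzyme of the mevalonate pathway, had 33.3, 33.7 and 25.5 FPKM at 1% oxygen and 18.3, 21.3 and 19.4 FPKM at 8%, and Insig1, the sterol sensor that holds back SREBP, 29.2, 29.5 and 21.3 and 16.3, 16.3 and 16.6 FPKM. Their log2 differences were 0.61 and 0.66 (limma adjusted p = 0.0468 and 0.0462). Lss, Acly, Hsd17b7 and Scap, which act in sterol cyclisation, acetyl-CoA supply, sterol synthesis and SREBP transport, rose by 0.52, 0.51, 0.36 and 0.37. As in the replication genes, 1% replicate 3 was the lowest 1% library for Hmgcs1, Insig1, Lss, Acly and Hsd17b7, and 11 genes of the list were called as higher without it but 0 without any other single library. Metallothionein Mt2, a zinc and copper buffer, had 151, 116 and 141 FPKM at 1% and 81.0, 57.3 and 79.9 FPKM at 8% (log2 difference 0.90, limma adjusted p = 0.0419). Fth1, the ferritin heavy chain that stores iron, rose by 0.35, and Fbxl5, which senses iron and oxygen and degrades an iron regulatory protein, fell by 0.43 on the log2 scale.

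Among the genes that fell, Lsm12 stood apart. Lsm12 is an Lsm-domain gene on chromosome 11 (GRCm38 bases 102162497 to 102185296, minus strand). It had 7.08, 6.48 and 7.31 FPKM at 1% oxygen and 16.1, 15.7 and 16.5 FPKM at 8%, a log2 difference of −1.11 (SE 0.0567, limma adjusted p = 0.00420). At 21% oxygen it had 16.9, 17.1 and 17.7 FPKM, close to its 8% level. Slc5a3, the sodium-coupled transporter of the osmolyte myo-inositol, had 4.78, 5.51 and 5.13 FPKM at 1% and 9.75, 11.1 and 10.9 FPKM at 8%, a log2 difference of −0.91 (SE 0.0721, limma adjusted p = 0.00801). Other genes among the 15 largest falls included the kinase gene Pim1 (−0.68), the meiotic regulator Ccnb1ip1 (−0.68), the repriming polymerase Primpol (−0.60), the RNA-binding gene Ptcd1 (−0.62), and the histone pre-mRNA processing gene Lsm11 (−0.61). Snhg1, a small nucleolar RNA host gene, averaged 42.6 ± 7.20 FPKM at 1% and 65.2 ± 1.69 FPKM at 8% (SD, n = 3 each), with 1% replicate 3 at 50.9 FPKM. Also in that group were Nyap1, Clec2f, Fgd3 and Ssu72, with differences between −0.56 and −0.61.

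Chaperones of the cytosolic heat shock response fell in part. Hspa4l, Hsph1, Hspa8 and Dnajb6 were called lower among 35 tested, and none was called higher, although the median of the list was 0.00 on the log2 scale. The called share was 11.4%, against 4.26% of all genes tested. At an unadjusted limma p under 0.05, 10 were lower and 5 higher. Hspa4l, an HSP110-family exchange factor, had 20.2, 20.6 and 20.5 FPKM at 1% oxygen and 32.6, 34.2 and 35.7 FPKM at 8%, a log2 difference of −0.71 (SE 0.0472, limma adjusted p = 0.00499). Its relative Hsph1 averaged 21.9 ± 1.08 FPKM at 1% and 30.8 ± 1.02 FPKM at 8%, and Hspa8, the constitutive HSP70 that both serve, 412 ± 10.1 and 556 ± 35.8 FPKM (SD, n = 3 each). Heat shock genes have close copies, which adds uncertainty to their levels. Other stress genes gave few calls. ATF4 target genes gave 1 call of 36, the amino acid transporter Slc38a2 (log2 difference −0.32), with a median of 0.01, and the stress genes Trib3 and Ddit3 had differences of 0.20 and 0.01 and were not called. Trib3 had 40.9, 31.3 and 57.0 FPKM at 1%, 39.9, 36.6 and 32.9 FPKM at 8% and 101, 115 and 80.3 FPKM at 21%.

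The called shares of cytosolic ribosomal protein and ribosome biogenesis genes were 0% and 6.94%, against 4.26% of all genes tested. None of 82 cytosolic ribosomal protein genes was called (limma), with 2 higher and 7 lower at an unadjusted p under 0.05, and 68 of the 82 had a negative value around a median of −0.05. Ribosome biogenesis gave 1 higher call, Pop1, of the RNase MRP particle, at 5.88, 5.30 and 4.998 FPKM at 1% oxygen and 2.43, 2.59 and 2.96 FPKM at 8%. The 4 lower calls among the 72 tested included the RNA polymerase I subunit genes Polr1c and Polr1d and the cofactor Taf1d, besides the helicase Ddx52. Junction genes Dsp, which anchors keratin at desmosomes, and F11r, a tight junction protein, fell by 0.35 and 0.26 on the log2 scale. They were the calls among 31 tested keratin, desmosome and junction genes, 6.45% against 4.26% of all genes tested. No gene of the corneal (20 tested) or epithelial-to-mesenchymal (21 tested) lists was called by limma. At an unadjusted p under 0.05 these lists had 5 and 5 members higher and 3 and 2 lower. Of all genes tested 12.9% were higher and 12.8% lower at that threshold. Vim, the mesenchymal intermediate filament, had 786, 836 and 833 FPKM at 1% and 949.9, 951 and 1017 FPKM at 8% (limma adjusted p = 0.0538).

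**Figure D5:**
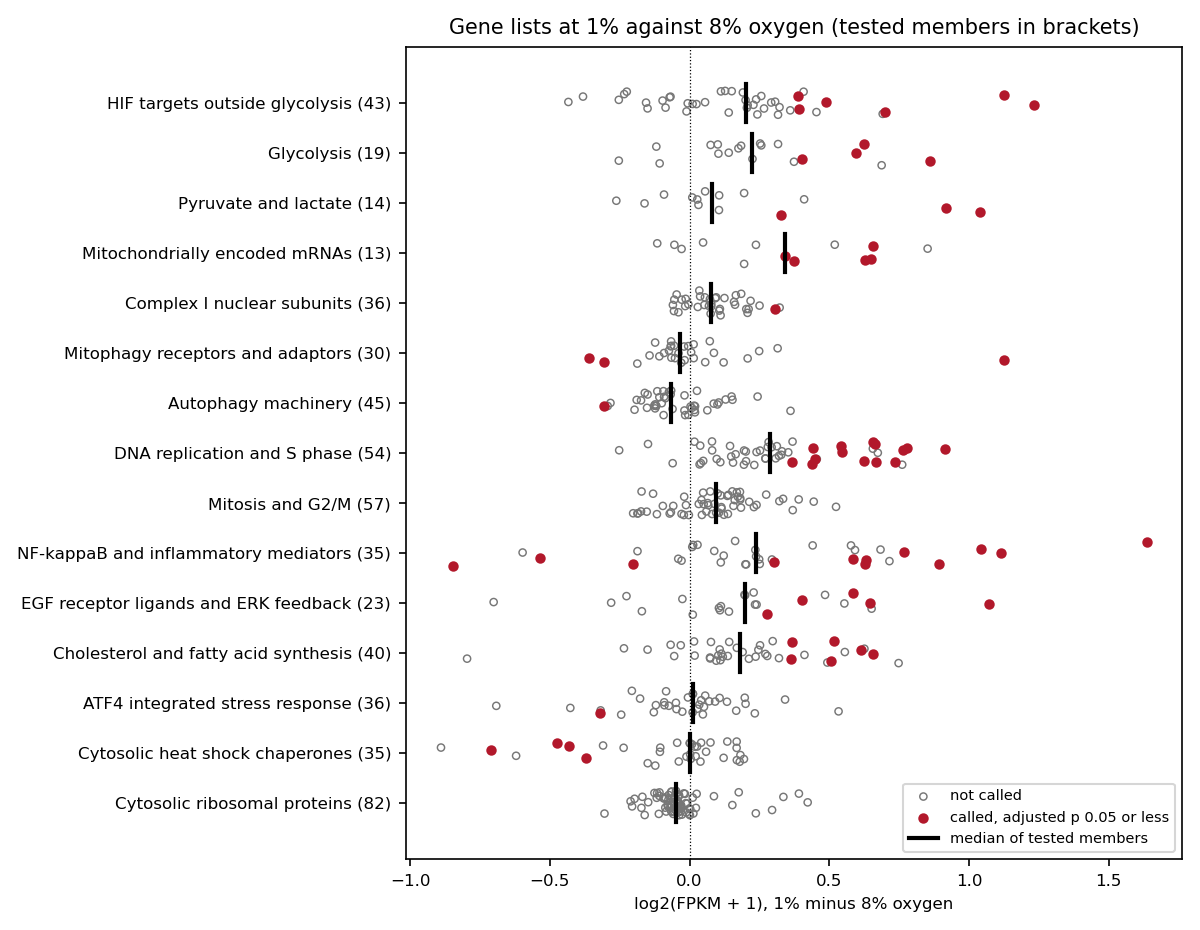
Difference of log2(FPKM + 1), 1% minus 8% oxygen, for each tested member of 15 gene lists, with called members in red and the list median as a black bar. Called members of the HIF, glucose, mitochondrial, replication, ERK and cholesterol lists all lie right of 0, and those of the heat shock list left of it.

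To see what 1% oxygen added to or reversed from 8%, the 21% values were set beside the called genes. The comparison of 8% with 21% oxygen uses the same 8% libraries, so the 2 differences of a gene are not independent: an 8% level that is low or high by chance moves them in opposite directions. For this reason each is given only as its own value. Among called genes of at least 5 FPKM with 8% and 21% groups apart, a further step in the same direction was met by U90926 and Lsm12 alone. U90926 had 29.9, 25.4 and 22.5 FPKM at 1% oxygen, 17.97, 16.1 and 17.0 FPKM at 8% and 13.0, 11.03 and 15.2 FPKM at 21%. For Lsm12 nearly the whole step lay between 1% and 8%, with a log2 difference of −1.11, against −0.09 between 8% and 21%.

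Other called genes had their extreme level at 8%. Csf3 differed by 1.64 at 1% minus 8% and by −1.78 at 8% minus 21%, with 113, 77.5 and 193 FPKM at 21% oxygen. Areg differed by 1.07 and −2.14, with 28.6, 27.9 and 31.8 FPKM at 21%, so its 1% level lay between the other 2. Lcn2 differed by 0.89 and −0.87, and Pdk1 by 1.04 and −0.89. On the other side, Il1rl1 differed by −0.85 and 1.82 and had 6.83, 6.11 and 8.01 FPKM at 21%, below its 1% values. Slc5a3 differed by −0.91 and 1.13, and Hspa8 by −0.43 and 0.81. As lists, replication genes had medians of 0.29 at 1% minus 8% and −0.41 at 8% minus 21%, mitochondrial messenger RNAs 0.34 and −0.24, and HIF targets outside glycolysis 0.20 and 0.00. Ccn1, the matricellular YAP target, was not called at 1% against 8%: it had 672, 739 and 645 FPKM at 1%, 765, 728 and 789 FPKM at 8% and 332, 295 and 264 FPKM at 21%. In fits to each pair of levels 494 of 11584 genes were called at 1% against 8%, 74 of 11607 at 1% against 21% (0.638%; 0.267% higher and 0.37% lower) and 1661 of 11624 at 8% against 21% (14.3%; 4.98% higher and 9.31% lower).

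Markers of other cell types were checked in the same libraries. No tested marker of stromal fibroblasts (7 of 23 in the table), leukocytes (3 of 15), vascular endothelium (2 of 8), corneal endothelium (3 of 8), melanocytes and Schwann cells (1 of 7) or goblet cells (1 of 7) was called by limma, with 4 higher and 6 lower at an unadjusted p under 0.05. Over all genes tested 12.9% were higher and 12.8% lower at that threshold, smaller shares than among these few markers. The defining leukocyte gene Ptprc, the endothelial gene Pecam1 and the keratocyte gene Lum did not exceed 0.0403 FPKM in the 6 libraries. Other members of these lists were present, such as the endothelial gene Eng at 9.95 to 12.3 FPKM. Of the stromal markers, Fbln2 lay between 64.1 and 83.3 FPKM, Twist1 between 34.4 and 40.3 and Col5a1 between 17.1 and 20.5. Col6a1 lay between 14.3 and 16.8 FPKM and Pdgfra between 6.885 and 7.97. Stromal members that were not tested did not reach the filter. The summed leukocyte list, carried mostly by the lysosomal gene Cd68, lay between 37.62 and 45.51 FPKM at 1% oxygen and between 46.87 and 51.09 FPKM at 8%, and its part in the results was not tested. The summed stromal list, carried mostly by Vim and S100a4, lay between 1717 and 1941 FPKM at 1% and between 1799 and 1878 FPKM at 8%. In bulk RNA a smaller number of cells of a kind and less RNA per cell cannot be told apart.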

How the data were processed

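Polyadenylated RNA was sequenced from stranded TruSeq libraries, per the labels. The authors deposited gene-level FPKM. HISAT2 2.0.4, StringTie 1.3.4d, cutadapt 1.9.1 and FastQC 0.11.8 are named, with build mm10, per the submitters' processing notes. Annotation release and strand setting were not given in the sources used here. FPKM carries no counts, so the depth of each library is unknown and no counting interval is given. The 6 libraries summed to 324600 to 333178 FPKM. Of 26445 entries, 26378 matched GENCODE M21 by identifier and 25638 of these carried the same symbol; 43 symbols stood on more than 1 entry (Aldoa on 2 in the glycolysis list).

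Genes reaching 1 FPKM in 3 or more of these 6 were tested on log2(FPKM + 1) with limma 3.58.1 in R 4.3.3 (empirical Bayes with a mean-variance trend, two-sided, Benjamini-Hochberg over all genes tested), and the script was tested on simulated data. The oxygen level in the labels gave the groups. The labels do not say that same-numbered libraries share a culture or day, so no block was used. Across genes these libraries did not deviate together (correlations of 0.0279, 0.007 and −0.0138), which cannot exclude pairing for single genes. The 14 alternatives changed the pseudocount, filter, scaling, prior or libraries. The members and the 53 gene lists were chosen with earlier results of these data known. Genes are named where they are among the 15 largest called differences in a direction with a mean of 5 FPKM or more and groups apart, among up to 4 called members of a list (or the 2 smallest p-values where none was called), among 28 genes of hypoxia, mitophagy and related interest, or the largest steps and turns beside 21% oxygen; members of a list beyond 4, and others named outside the rule, were chosen after their values were seen. One result is not reported here.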

Additional observations from a re-analysis of the deposited data

How the results depend on the processing

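The 494 calls (268 higher, 226 lower) stayed within 1.5 times under pseudocount 0.1, a mean of at least 5 FPKM, median-ratio rescaling, quantile normalization and constant prior variance for the total and the higher calls. Lower calls fell to 144 with constant prior variance. Without a filter on low values, which adds genes near 0 to the fit, 89 were called (49 higher, 40 lower). A spread from all 9 libraries gave 15 (8 higher, 7 lower). With the replicate number as a block, which costs residual degrees of freedom, 0 were called by limma, with 2484 at an unadjusted p under 0.05. The labels do not say whether the numbers pair the samples. Leaving out 1 library gave 19 to 289 calls, 12 to 175 higher and 7 to 114 lower, and only the fit without 1% oxygen replicate 3 exceeded 37. Every called gene kept its sign wherever it had a value. Groups without overlap fixed this in advance, except under median-ratio rescaling and quantile normalization. Of 1989 comparisons of a named gene with an alternative, 760 lost the call, 6 gained it and 0 reversed a call, while 3 uncalled named genes changed sign. Depth is unknown, so small differences of low genes may lie within counting error.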

Other observations

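The gene families given here were chosen after their values were seen, and 4.26% of all genes tested were called. Of 10 tested SR splicing factors 3 rose (Srsf2, Srsf3 and Srsf6), none fell, and 9 had a positive value, with a median of 0.32 on the log2 scale. Srsf2 had 59.7, 55.2 and 54.8 FPKM at 1% oxygen and 36.6, 40.8 and 36.1 FPKM at 8%, and 79.9, 67.2 and 86.0 FPKM at 21% (limma adjusted p = 0.0212 at 1% against 8%). Of 20 tested hnRNP genes, 3 rose (Hnrnpab, Hnrnpd and Hnrnpl) and Hnrnpdl fell, with a median of 0.05, 13 positive and 7 negative values. Outside these families, the splicing genes Sf1, Prpf6 and Pnn fell by 0.32, 0.30 and 0.39 on the log2 scale. Of 13 small nucleolar RNA host genes 1 was called, Snhg1, which fell, and 12 had a negative value. Of 245 tested zinc finger genes named Zfp, 1 rose and 6 fell, a called share of 2.86%, below that of all genes tested. Of the 245, 180 had a negative value, and 21.2% were lower at an unadjusted limma p under 0.05, against 12.8% of all genes tested. Proteasome genes gave 1 call of 37 (2.7%), Psma6, which rose, and 29 had a positive value. Odc1, the first enzyme of polyamine synthesis, had 83.2, 73.7 and 74.9 FPKM at 1% and 46.7, 45.4 and 48.8 FPKM at 8% (log2 difference 0.71, limma adjusted p = 0.0107). Rap1gap2 had 11.02, 10.6 and 10.8 FPKM at 1% and 4.71, 4.52 and 4.57 FPKM at 8%, while at 21% oxygen it had 10.4, 10.7 and 4.02 FPKM.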
